A study of Mus musculus with 8 samples.

Results

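Tap1, Tap2, Tapbp, Psmb8, Psmb9, Psmb10, Psme1, Psme2, Erap1 and Nlrc5 are 10 genes of the machinery that makes and loads peptides for MHC class I molecules, together with the transcriptional activator of that pathway. They were taken by gene symbol, for their role in the pathway, from a table of 29079 genes, and all 10 were among the 14923 genes with enough reads to be tested. Earlier results of these data were known when they were chosen. The table came from mRNA sequencing of MC38, a cell line from a mouse adenocarcinoma of the colon. The control line, called WT in the labels, had been made with a control CRISPR guide, and the Piezo2 knockout line, called KO, with the guide RNA named gRNA1 against Piezo2, a mechanically gated ion channel gene. Each line was left non-irradiated or was given X-rays as 1 dose of 30 Gy, with RNA taken 60 hours later, which made 4 groups of 2 libraries: WT non-irradiated, WT irradiated, KO non-irradiated and KO irradiated. The sources used here do not say whether the knockout line is a clone or a pool of edited cells, or whether the libraries of a group came from separate cultures. The p-values therefore reflect only how far these libraries lie apart, which may be technical.

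Cells cut cytosolic proteins with the proteasome, and the peptides are carried into the endoplasmic reticulum, trimmed there and fitted onto class I molecules, which show them to CD8+ T cells at the surface. Interferon replaces the catalytic subunits of the constitutive proteasome with those of the immunoproteasome and raises the transporter, the loading chaperones and Nlrc5, which binds class I gene promoters with other factors and drives their transcription. In tumour cells the level of this machinery bears on how well T cells can see them.

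Psmb9, Tap1, Psmb8 and Tap2 lie side by side within 34.3 kb of the MHC region on chromosome 17, where Tapbp also lies, and the other members lie on chromosomes 8 (Psmb10 and Nlrc5), 14 (Psme1 and Psme2) and 13 (Erap1). Psmb9 and Tap1 are read in opposite directions from starts that RefSeq puts 225 bases apart, so by those starts the stretch between them lies upstream of both. In the GENCODE annotation, however, Psmb9 reaches base 34187764 and covers the whole stretch, and the genes overlap by 212 bases. The stretch is printed from the RefSeq start of Psmb9 to that of Tap1, because these genes were among those that moved most. The other stretches run from 150 bases before to 20 bases after the RefSeq start of Psmb8, Erap1 and Psme1, the members whose windows held a searched motif of the interferon pathways. For these genes, and for Psmb9 and Tap1, the RefSeq start lies downstream of the first annotated base of the gene. All are from RefSeq promoter windows on build GRCm38.p6 and are written from 5′ to 3′. Capitals mark a match to the interferon-stimulated response element (GAAANNGAAA on either strand) in Erap1 and Psme1, and to the interferon-gamma activated site (TTCNNNGAA) in Psmb8.
Psmb9 start to Tap1 start (chr17:34187330-34187556, plus strand): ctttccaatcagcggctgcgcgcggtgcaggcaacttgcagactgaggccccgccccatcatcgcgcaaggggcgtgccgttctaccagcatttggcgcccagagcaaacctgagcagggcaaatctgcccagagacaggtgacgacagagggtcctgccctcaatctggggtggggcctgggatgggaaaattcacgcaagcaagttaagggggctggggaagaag
Psmb8 (chr17:34198045-34198214, plus strand): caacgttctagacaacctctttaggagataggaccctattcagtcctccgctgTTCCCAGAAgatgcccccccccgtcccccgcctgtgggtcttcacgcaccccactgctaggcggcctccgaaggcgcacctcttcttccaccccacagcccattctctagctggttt
Erap1 (chr13:74639703-74639872, plus strand): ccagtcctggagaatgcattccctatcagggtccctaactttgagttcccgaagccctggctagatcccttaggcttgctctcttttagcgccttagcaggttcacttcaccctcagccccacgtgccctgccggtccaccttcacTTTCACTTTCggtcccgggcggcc
Psme1 (chr14:55578344-55578513, plus strand): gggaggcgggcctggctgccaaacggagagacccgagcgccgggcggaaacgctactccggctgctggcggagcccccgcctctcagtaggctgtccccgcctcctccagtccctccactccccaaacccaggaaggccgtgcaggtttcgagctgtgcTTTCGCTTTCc

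The windows searched ran from 250 bases before to 50 bases after each start, on both strands, and 8 of the 10 members had an entry (Tap2 and Nlrc5 had none). Among all 32851 windows, 3.44% held the response element, 8.3% the activated site and 6.93% the NF-kB motif. Psmb8 held the activated site from base -97 to base -89, counted from the RefSeq start, where the same bases match on both strands. Erap1 held the response element on the minus strand from -4 to 6, across the start, and Psme1 held it on the minus strand from 10 to 19. No window of the other members held one of these letter strings, which says only that the letters are not in those windows.

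The libraries held 10971004 to 19887180 reads assigned to genes. Piezo2 itself was at 0 to 12 reads in every library of either line, so its level could not check the labels. The labels call MC38 an epithelial line, but Krt18 had at most 2 reads, Cldn7 at most 3, Krt8 at most 20 and Krt19 1 to 28. Cdh1 had 526 to 1365 reads, and Epcam and Krt20 had no entry in the counts. Of the fibroblast markers, the collagen gene Col1a2 had 10339 to 24707 reads, but Lum had at most 1 and Col1a1 75 to 287. Dcn had 24 to 951, Pdgfra 379 to 986 and Pdgfrb 727 to 3862. Some markers of other cell types had more reads after irradiation. Among 9 leukocyte and macrophage markers, 4 had at most 3 reads in every library and 3 were tested. Of these, Ptprc and Lyz2 had enough reads to be tested only through irradiated libraries, so their calls are not counted here. The other, Cd14, was called higher with irradiation in KO and not in WT. The summed level of the 9 markers was 5.91 to 6.23 CPM (read counts scaled to the library total) in WT, 8.6 to 11 in irradiated WT, 11 to 11.7 in KO and 18.6 to 20 in irradiated KO, most of it Cd14. Ptprc, the pan-leukocyte marker, had 0 and 2 reads in WT, 20 and 20 in irradiated WT, 0 and 0 in KO, and 6 and 7 in irradiated KO. The 7 T and NK cell markers summed to at most 0.697 CPM in any library, while the 7 B and dendritic cell markers went from 0.237 to 0.46 CPM in WT to 12.2 to 16.5 in irradiated WT, and from 0.352 to 0.638 in KO to 9.18 to 9.88 in irradiated KO, most of it Cd74. The 6 fibroblast markers summed to 822 to 900 CPM in WT, 1080 to 1190 in irradiated WT, 1080 to 1110 in KO and 1590 to 1760 in irradiated KO, most of it Col1a2. The 5 endothelial markers summed to 1.42 to 2.04, 4.8 to 6.22, 1.86 to 2.55 and 5.31 to 5.97 CPM in the same order. The part of these markers in the results was not tested. In bulk RNA, fewer cells that express a gene and less RNA per cell cannot be told apart.

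Irradiation raised the machinery in both lines, and the fitted factor was larger in the knockout line for each of the 10 genes, with the difference past the threshold for 6. In WT cells 9 of the 10 members rose and 0 fell in edgeR's quasi-likelihood test with Benjamini-Hochberg adjustment, against 20.4% of all tested genes called higher and 18.4% called lower. In KO cells all 10 rose, against 21.1% of tested genes called higher and 18.6% lower. The median log2 change of the members was 1.18 in WT and 2.78 in KO, beside medians over all tested genes of 0.028 and 0.0184. No member was lower at an unadjusted p under 0.05 in either line, and DESeq2 also called 9 and 10 members, all higher.

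**Figure D1:**
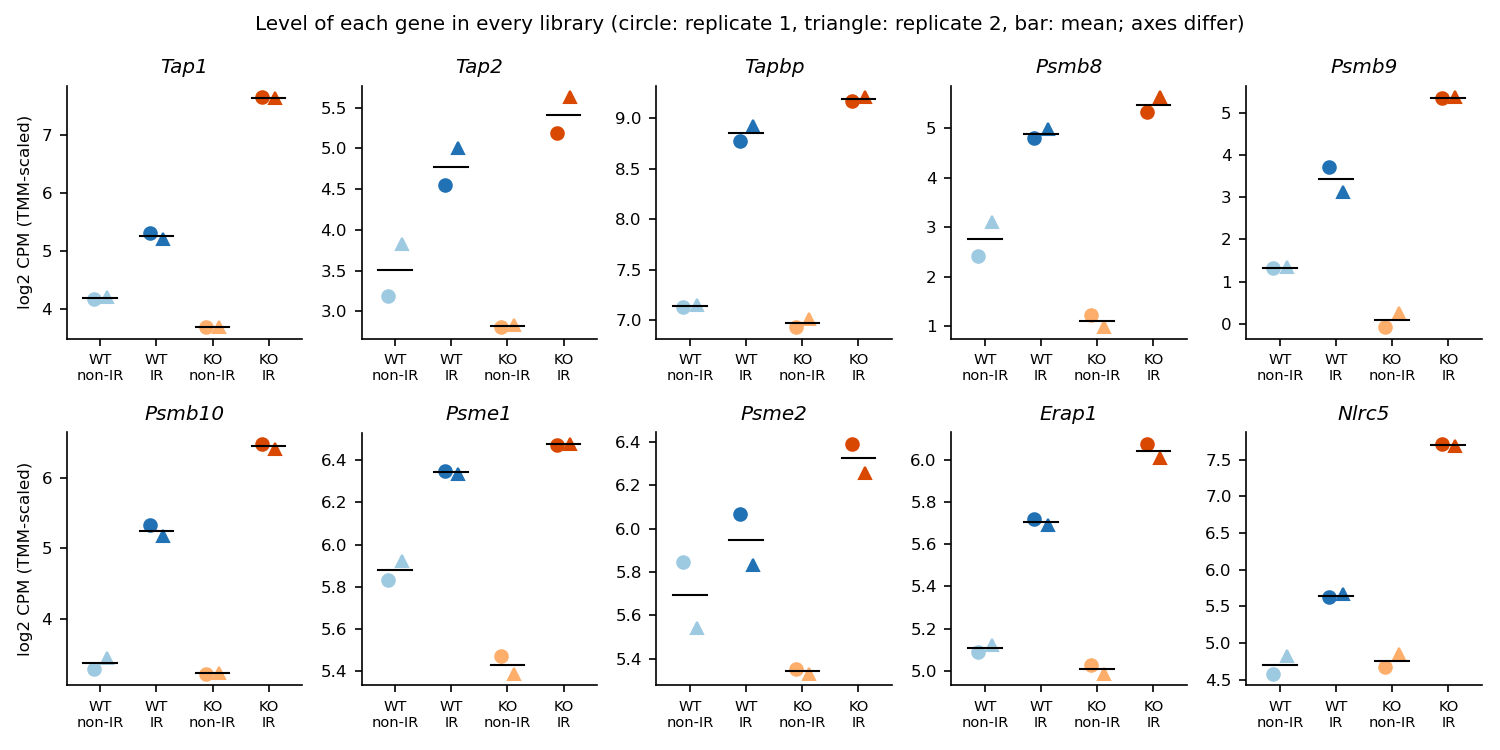
Level of each of the 10 genes in every library, as log2 CPM after TMM scaling (y axis, range differs by gene) in the 4 groups (x axis), where circles are replicate 1, triangles replicate 2 and bars the mean of both. For each gene the 2 irradiated KO libraries are the highest of all 8 libraries.

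Tap1 and Tap2 are the subunits of the transporter that carries peptides into the endoplasmic reticulum. Tap1 (chr17:34187553-34197225) was at 17.4 and 18.1 CPM in the non-irradiated WT libraries and at 40.4 and 37.8 CPM in the irradiated ones. In KO cells it was at 12.9 and 12.6 CPM without irradiation and at 203 and 201 CPM after it. The 4 groups did not overlap, with non-irradiated KO lowest and irradiated KO highest. Such separation of 2 against 2 libraries, in either direction, was not particular to the members. With irradiation in WT it held for 17 of 18 genes of the 19S proteasome particle and 11 of 14 of the 20S core. Its share over all tested genes was not computed. Irradiation raised Tap1 2.11-fold in WT (log2 change 1.08 ± 0.08 SE, edgeR adjusted p = 6.71e-05) and 15.5-fold in KO (3.96 ± 0.08, edgeR adjusted p = 4.07e-07). Psmb9 overlaps Tap1 by 212 bases on the opposite strand, and the strand setting is not given.

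Tap2 (chr17:34203527-34216321), the partner of Tap1 in the same transporter, moved less and varied more between replicates. Its levels were 8.72 and 13.8 CPM in WT, 23.8 and 32.5 CPM in irradiated WT, 6.84 and 6.84 CPM in KO, and 36.8 and 49.8 CPM in irradiated KO. The groups kept the order seen for Tap1 and again did not overlap, but replicate 2 was well above replicate 1 in 3 of the 4 groups. The rise with irradiation was 2.41-fold in WT (log2 1.27 ± 0.25, edgeR adjusted p = 0.00576) and 6.18-fold in KO (log2 2.63 ± 0.26, edgeR adjusted p = 0.000242). Per kb of all annotated exons, the transporter subunits stood near each other in non-irradiated WT, at 3.25 ± 0.09 CPM per kb for Tap1 and 2.98 ± 0.95 for Tap2 (SD, n = 2). In non-irradiated KO the means were 2.32 and 1.81. How near the subunits stand depends on the lengths used. In irradiated KO cells Tap1 was at 36.9 ± 0.18 CPM per kb and Tap2 at 11.5 ± 2.43.

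Tapbp (chr17:33915899-33929292) encodes tapasin, which bridges the transporter and the class I molecule while peptides are fitted. It was the most abundant member per kb in every group, at 38.0 ± 0.62 CPM per kb in WT, 130 ± 9.14 in irradiated WT, 34.2 ± 0.93 in KO and 162 ± 3.10 in irradiated KO (SD, n = 2). By library it measured 136 and 140 CPM in WT, 447 and 494 in irradiated WT, 122 and 126 in KO, and 580 and 596 in irradiated KO. The groups did not overlap, and the irradiated groups of both lines lay close together compared with Tap1. Irradiation raised Tapbp 3.27-fold in WT (log2 1.71 ± 0.08, edgeR adjusted p = 1.38e-05) and 4.63-fold in KO (log2 2.21 ± 0.08, edgeR adjusted p = 2.04e-06).

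Psmb8, Psmb9 and Psmb10 are the catalytic subunits of the immunoproteasome, which take the places of Psmb5, Psmb6 and Psmb7 when the particle is assembled. Psmb9 (chr17:34181987-34187764) had the lowest level per kb of all members before irradiation and rose most in KO cells. It was counted in 39 and 36 reads in WT (2.31 and 2.37 CPM), 181 and 150 in irradiated WT (13.4 and 8.71 CPM), 9 and 21 in KO (0.82 and 1.06 CPM), and 617 and 717 in irradiated KO (40.9 and 41.4 CPM). No groups overlapped, although few reads stand behind the KO baseline. Its value is also uncertain, because Tap1 overlaps it by 212 bases on the opposite strand and the strand setting is not given. Tap1 had 3054 and 3486 reads in irradiated KO. The rise with irradiation was 4.5-fold in WT (log2 2.17 ± 0.23, edgeR adjusted p = 0.000334) and 41.3-fold in KO (log2 5.37 ± 0.26, edgeR adjusted p = 5.69e-06).

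Psmb8 (chr17:34197721-34201454) followed the same order of groups. Its CPM values were 5.04 and 8.34 in WT, 28.3 and 31.9 in irradiated WT, 2.19 and 1.81 in KO, and 40.3 and 49.5 in irradiated KO, from 24 and 36 reads at the lowest. Irradiation raised it 4.34-fold in WT (log2 2.12 ± 0.22, edgeR adjusted p = 0.000348) and 22.2-fold in KO (log2 4.47 ± 0.26, edgeR adjusted p = 1.7e-05). The larger fold in KO cells started from a lower level, and the irradiated groups lay within a factor of 2 of each other.

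Psmb10 (chr8:105935735-105938444) was different at baseline, since the lines were close to each other there. It was at 9.37 and 10.5 CPM in WT and 9.11 and 9 CPM in KO. After irradiation it was at 41.1 and 36.7 CPM in WT and at 90.7 and 86.6 CPM in KO. The rise was 3.76-fold in WT (log2 1.91 ± 0.10, edgeR adjusted p = 2.05e-05) and 9.55-fold in KO (log2 3.26 ± 0.10, edgeR adjusted p = 1.1e-06).

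Psme1 and Psme2 encode the alpha and beta subunits of PA28, the interferon-inducible cap that opens the proteasome. Together with Erap1 they changed least of the members with irradiation. Psme1 (chr14:55578123-55581529) was at 55.4 and 59.7 CPM in WT, 83.1 and 82.0 in irradiated WT, 44.1 and 40.9 in KO, and 89.5 and 89.9 in irradiated KO. The irradiated groups stood close to each other, while non-irradiated KO was the lowest. Psme1 rose 1.38-fold with irradiation in WT (log2 0.46 ± 0.07, edgeR adjusted p = 0.00241) and 2.06-fold in KO (log2 1.05 ± 0.08, edgeR adjusted p = 4.84e-05).

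Psme2 (chr14:55587441-55591113) was the member that did not pass the test in WT. It was at 55.9 and 45.7 CPM in WT and 68.3 and 57.8 CPM in irradiated WT, a log2 difference of 0.25 ± 0.13 (edgeR adjusted p = 0.154). In KO cells it went from 40.6 and 39.3 CPM to 84.6 and 77.2 CPM, a 1.98-fold rise (log2 0.98 ± 0.13, edgeR adjusted p = 0.000806). Its value is uncertain, because the annotated copy Psme2b on chromosome 11 has 789 of 794 aligned transcript bases in common with it and the sources used here do not say how shared reads were counted. Psme2b had 97 and 101 reads in WT, 158 and 164 in irradiated WT, 91 and 178 in KO, and 527 and 564 in irradiated KO. It overlaps Gm12185 and 9930111J21Rik1, which reached 926 and 1162 reads in irradiated KO. With the reads of Psme2 and Psme2b summed, an alternative chosen after seeing the data, the irradiation effect was 0.31 on the log2 scale in WT (edgeR adjusted p = 0.0702) and 1.21 in KO (edgeR adjusted p = 0.000206). The summed reads were also called higher in irradiated KO than in irradiated WT (0.65, edgeR adjusted p = 0.0055) and in the interaction (0.90, edgeR adjusted p = 0.0398), where Psme2 alone was not.

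Erap1 (chr13:74639568-74693201) encodes the aminopeptidase that trims peptides inside the endoplasmic reticulum. It was at 33.0 and 34.2 CPM in WT, 53.8 and 52.5 in irradiated WT, 32.4 and 30.9 in KO, and 67.9 and 64.9 in irradiated KO. Replicates were close and no groups overlapped. Its value is uncertain, because the far more abundant Cast (3930 to 7626 reads) overlaps its 3' end by 834 bases on the opposite strand, and Cast itself had log2 changes with irradiation of 0.24 in WT and 0.14 in KO. The rise was 1.52-fold in WT (log2 0.60 ± 0.08, edgeR adjusted p = 0.000847) and 2.05-fold in KO (log2 1.04 ± 0.08, edgeR adjusted p = 5.63e-05).

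Nlrc5 (chr8:94434356-94527272), the transactivator of class I genes, started from the same range in both lines. It was at 23.2 and 27.7 CPM in WT and at 25.2 and 28.1 CPM in KO, and these groups overlapped. After irradiation it was at 50.2 and 51.8 CPM in WT and at 212 and 208 CPM in KO. Irradiation raised Nlrc5 1.92-fold in WT (log2 0.94 ± 0.10, edgeR adjusted p = 0.000393) and 7.66-fold in KO (log2 2.94 ± 0.10, edgeR adjusted p = 1.73e-06). The opposite-strand gene 9330175E14Rik, which overlaps Nlrc5 by 748 bases, had 22 and 15 reads in WT, 72 and 54 in irradiated WT, 34 and 33 in KO, and 238 and 228 in irradiated KO, against 392 and 422, 681 and 891, 277 and 558, and 3194 and 3611 for Nlrc5.

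Without irradiation the knockout line had less of part of the machinery. In KO against WT, 4 members were lower and 0 higher, against 9.49% of tested genes called lower and 10.4% called higher, and the members' median log2 difference was -0.406 beside -0.0104 over all tested genes. Psmb8 was lower by the largest factor, at a log2 difference of -1.77 ± 0.28 (edgeR adjusted p = 0.00452). Psmb9 followed at -1.28 ± 0.29 (edgeR adjusted p = 0.0191), then Tap1 at -0.50 ± 0.08 (edgeR adjusted p = 0.00577) and Psme1 at -0.45 ± 0.08 (edgeR adjusted p = 0.00607). Psmb10, Tapbp, Erap1 and Nlrc5 had log2 differences of -0.14, -0.16, -0.10 and 0.06, and Tap2 and Psme2, at -0.72 and -0.36, did not pass the test. The Psmb9 call was lost when any of the 4 non-irradiated libraries was left out (edgeR adjusted p 0.0774 to 0.1), and with only these groups fitted Psmb9 and Tap1 were not called (edgeR adjusted p = 0.0742 and 0.0564).

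After irradiation the called differences between the lines went the other way, though only Tap1 and Psmb9 were called both before and after. In irradiated KO against irradiated WT, 6 members were higher and 0 lower, against 13.3% of tested genes called higher and 11.4% called lower, with a median log2 difference of 0.611 over the members and -0.0132 over all tested genes. Tap1 was 5.21-fold higher (log2 2.38 ± 0.07, edgeR adjusted p = 6.55e-06), Nlrc5 4.16-fold (log2 2.06 ± 0.10, edgeR adjusted p = 1.6e-05), Psmb9 3.78-fold (log2 1.92 ± 0.20, edgeR adjusted p = 0.00046) and Psmb10 2.3-fold (log2 1.20 ± 0.09, edgeR adjusted p = 0.000123). Tapbp and Erap1 were each 1.26-fold higher (edgeR adjusted p = 0.0187 and 0.0156). Psmb8, Tap2, Psme2 and Psme1 were not called, at log2 differences of 0.59, 0.63, 0.37 and 0.13 with edgeR adjusted p-values of 0.0697, 0.0907, 0.0646 and 0.237. The call for Tapbp was lost without WT irradiated replicate 1 or either irradiated KO library (edgeR adjusted p 0.0648 to 0.114), and that for Erap1 without any of the 4 irradiated libraries (0.059 to 0.118). Psmb8 was called when either non-irradiated WT library was left out (edgeR adjusted p = 0.0249 and 0.0252), and so was Psme2 (0.0487 and 0.0469).

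The interaction asks whether irradiation moved a gene by a different factor in the knockout line. It was positive and past the threshold for 6 members and negative for 0, against 1.37% of tested genes called positive and 0.57% negative, and the median over the members was 1.35 on the log2 scale beside -0.00702 over all tested genes. The extra rise in KO cells was 3.20 ± 0.35 for Psmb9 (edgeR adjusted p = 0.00412), 2.88 ± 0.11 for Tap1 (0.000132), 2.36 ± 0.34 for Psmb8 (0.0151), 1.99 ± 0.14 for Nlrc5 (0.000968), 1.35 ± 0.14 for Psmb10 (0.00394) and 0.58 ± 0.11 for Psme1 (0.0393). The other members had positive values that did not pass, from 0.43 for Erap1 to 1.36 for Tap2 (edgeR adjusted p = 0.122 and 0.142). Psme1 lost its call when any of the 8 libraries was left out (edgeR adjusted p 0.0993 to 0.198), and Psmb8 lost it without either irradiated WT library, either non-irradiated KO library or irradiated KO replicate 2 (0.0523 to 0.109). In the interaction and in both comparisons of the lines, the direction with 0 calls also had 0 members at an unadjusted p under 0.05 and in DESeq2.

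**Figure D2:**
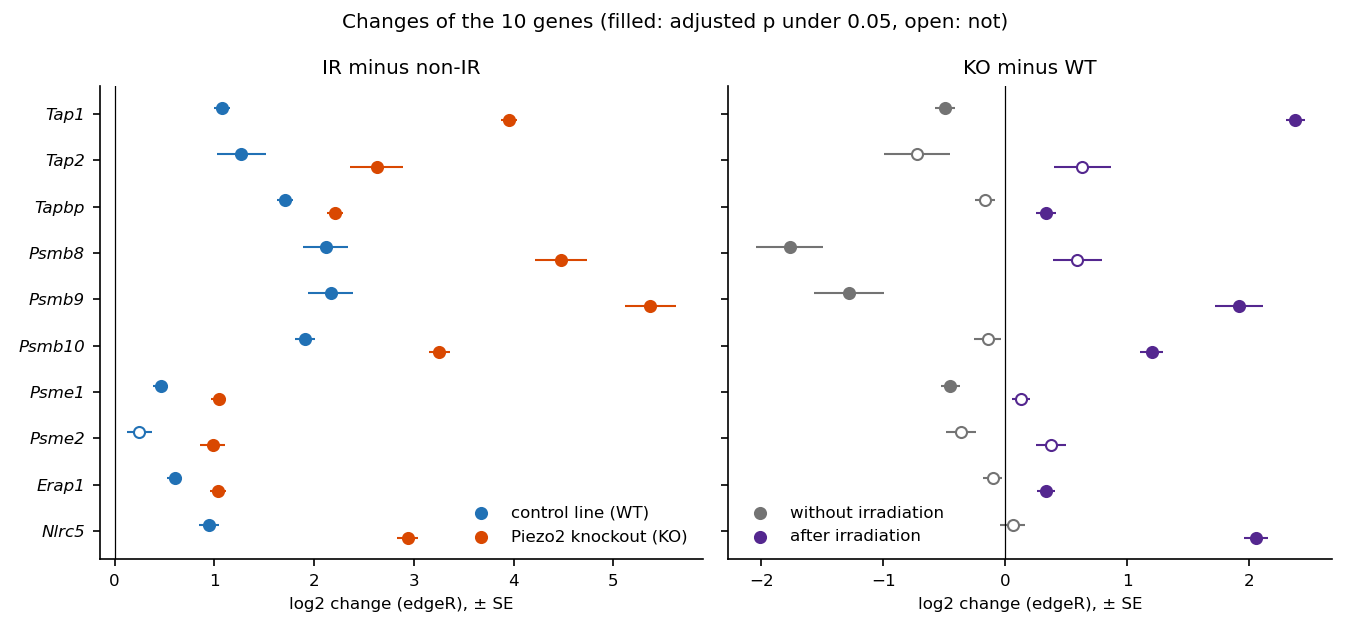
Log2 change with irradiation in each line (left) and log2 difference between the lines at each dose (right) for the 10 genes, with bars of 1 SE and filled points where the edgeR adjusted p was under 0.05. Tap1 and Psmb9 lie left of 0 without irradiation and right of 0 after it, whereas Nlrc5 and Psmb10 have open points near 0 without irradiation and filled points right of 0 after it.

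By the calls given, the 6 called interactions fell into 3 patterns of levels. Tap1 and Psmb9 were called lower in KO before irradiation and higher after it. Nlrc5 and Psmb10 had no called difference before and were higher after. Psmb8 and Psme1 were lower before and had no called difference after. These patterns depend on the settings: Psmb8 was called higher after irradiation without a count filter (edgeR adjusted p = 0.00146), with only the groups compared (0.0322) and without either non-irradiated WT library, and the lower Psmb9 level before irradiation was not called when any non-irradiated library was left out.

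Set against the constitutive subunit whose place it takes, each immunoproteasome subunit gained with irradiation in both lines. The ratio of reads per exon length of Psmb8 to Psmb5 had a mean log2 of -4.74 ± 0.42 in WT, -2.03 ± 0.10 in irradiated WT, -6.26 ± 0.54 in KO and -1.36 ± 0.05 in irradiated KO (SD, n = 2). That is a 6.54-fold rise in WT and a 29.9-fold rise in KO. Psmb9 against Psmb6 went from -7.09 ± 0.18 to -4.19 ± 0.31 in WT, 7.5-fold, and from -8.2 ± 0.26 to -2.23 ± 0.17 in KO, 62.8-fold. Psmb10 against Psmb7 went from -2.12 ± 0.40 to 0.40 ± 0.01 in WT, 5.73-fold, and from -2.2 ± 0.15 to 1.55 ± 0.18 in KO, 13.4-fold. Psmb10 was the only one of the 3 to exceed its counterpart, at 56.8% and 57% of the pair in the irradiated WT libraries and 72.9% and 76.1% in the irradiated KO libraries, while Psmb9 made up 16.4% and 18.8% of its pair in irradiated KO.

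**Figure D3:**
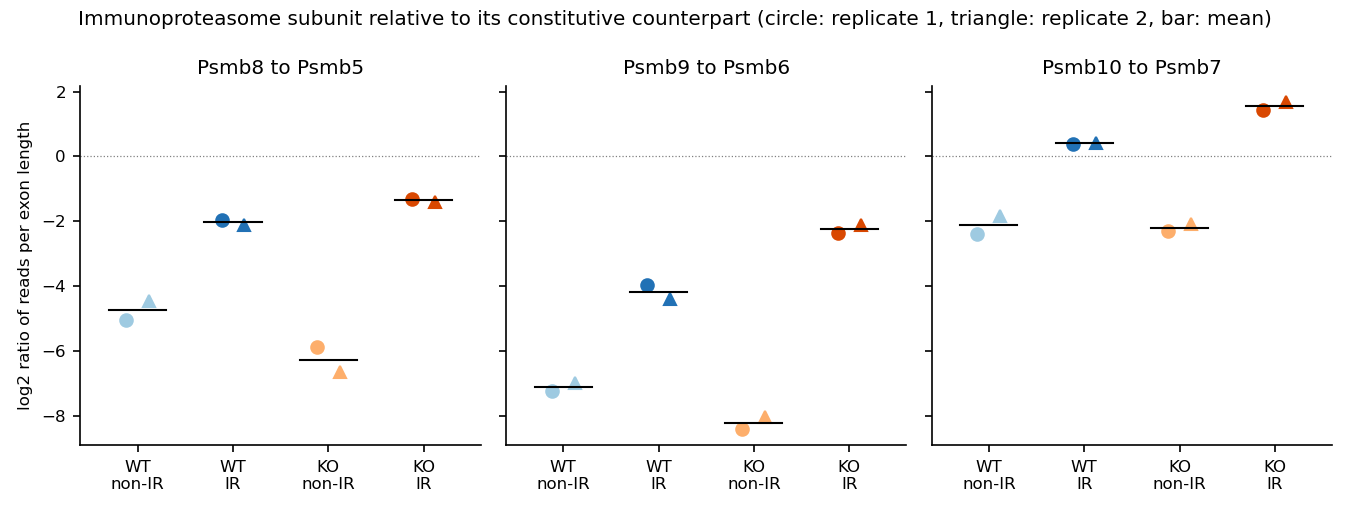
Log2 ratio of reads per exon length of each immunoproteasome subunit to its constitutive counterpart (y axis) in the 4 groups (x axis), where circles are replicate 1, triangles replicate 2, bars means and the dotted line equal levels. Each pair has its highest ratio in irradiated KO, and Psmb10 to Psmb7 alone lies above the dotted line.

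Which side of 1 a ratio falls on depends on the lengths used, whereas the change between groups does not. With the length of the longest coding sequence, chosen after seeing the data, Psmb10 to Psmb7 had a mean log2 of -0.581 in irradiated WT and 0.566 in irradiated KO, and Psmb8 to Psmb5 of -0.186 and 0.488. The ratios are given as a description, with no test. The counterparts themselves went down: Psmb6 fell in WT (log2 -0.76 ± 0.11, edgeR adjusted p = 0.00164) and KO (-0.54 ± 0.11, 0.0076), Psmb7 fell in WT (-0.62 ± 0.17, 0.0201) and KO (-0.49 ± 0.17, 0.0494), and Psmb5, at -0.55 and -0.47, was not called (edgeR adjusted p = 0.0587 and 0.096).

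The rest of the proteasome did not rise with the members. Of 14 genes of the constitutive 20S core, the barrel that holds the catalytic sites, 9 fell and 0 rose with irradiation in WT and 8 fell and 0 rose in KO, with median log2 changes of -0.449 and -0.386. Those counts were 5 without WT irradiated replicate 2 and 4 without KO irradiated replicate 2. Of 18 genes of the 19S particle, the cap that binds ubiquitinated proteins, 16 fell in WT and 15 in KO and 0 rose, among them Psmd1 at -0.73 ± 0.07 in WT and -0.79 ± 0.07 in KO (edgeR adjusted p = 0.000191 and 0.000107). Psme3, which encodes the PA28 subunit gamma of a separate nuclear cap, fell by 0.77 on the log2 scale in WT and by 0.73 in KO (edgeR adjusted p = 0.000136 and 0.000142), in contrast to Psme1. It was the only called gene of 8 other activators and assembly factors in WT, where 2 were called by DESeq2 or when any of 4 libraries was left out (WT non-irradiated replicate 2, WT irradiated replicate 1 or either irradiated KO library), while in KO 3 fell and 1 rose. Of 7 other antigen-processing peptidases, 1 rose and 2 fell in WT and 1 rose and 1 fell in KO, and the WT calls were 0 or 1 in total when WT non-irradiated replicate 1 or 2 or WT irradiated replicate 2 was left out. In these lists a direction with 0 calls also had 0 genes at an unadjusted p under 0.05 and in DESeq2. Of all tested genes, 20.4% were called higher and 18.4% lower with irradiation in WT, and 21.1% and 18.6% in KO.

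**Figure D4:**
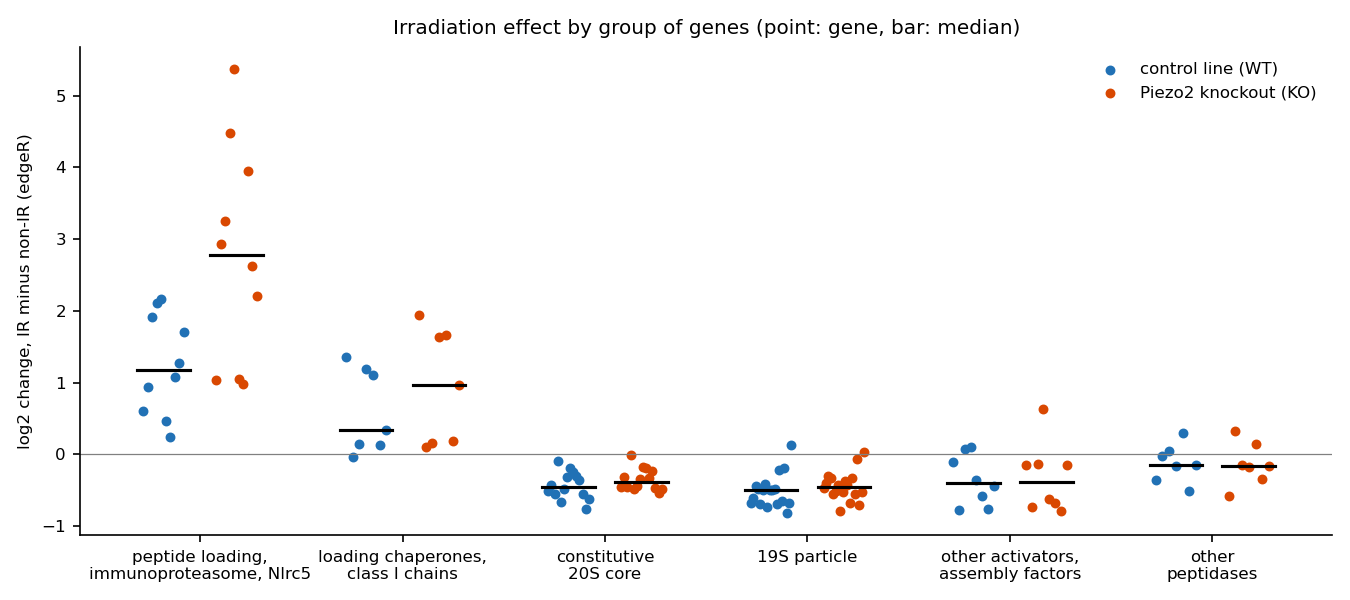
Log2 change with irradiation (y axis, edgeR) for each tested gene of 6 groups of genes (x axis) in the control line (blue) and the knockout line (orange), with bars at the medians. The members lie above 0 in both lines, with medians of 1.18 and 2.78, while the 20S core and the 19S particle have medians below 0.

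Among 7 loading chaperones and class I chains, 4 rose and 0 fell in each line, against 20.4% of tested genes called higher in WT and 21.1% in KO. The median log2 changes of the 7 were 0.345 in WT and 0.971 in KO. The 4 that rose were the class I heavy chains H2-K1 and H2-D1, their light chain B2m, and Tapbpl, a relative of tapasin. The chaperones Calr, Canx and Pdia3 were not called in either line. B2m went from 581 and 520 CPM to 1530 and 1420 in WT (log2 1.36 ± 0.11, edgeR adjusted p = 9.45e-05) and from 552 and 510 to 2260 and 1930 in KO (1.95 ± 0.11, 1.29e-05). H2-K1 rose by 1.11 ± 0.10 on the log2 scale in WT and 1.66 ± 0.11 in KO (edgeR adjusted p = 0.000209 and 2.45e-05). Reads of class I heavy chains may be shared with near-identical class I genes, so the H2-K1 and H2-D1 values are uncertain. None of the 7 was called in the interaction test by edgeR, where 4 had a positive value at an unadjusted p under 0.05 and DESeq2 called 2. Of all tested genes, 1.37% were called positive there, and 13.3% were called higher in irradiated KO than in irradiated WT. In the same list 3 were higher in irradiated KO than in irradiated WT, a count of 1 without WT irradiated replicate 2 or KO irradiated replicate 1.

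The partners of Nlrc5 and the factors that act on the same promoters moved in both directions, as tested genes in general did. Of 15 genes, 5 rose and 5 fell in WT, against 20.4% of all tested genes called higher and 18.4% lower. In KO 7 rose and 4 fell, against 21.1% called higher and 18.6% lower. The 7 include Ciita, which had enough reads to be tested only through irradiated KO libraries. Irf1, which binds class I and immunoproteasome promoters, was at 46.6 and 44.4 CPM in WT, 109 and 121 in irradiated WT, 30.1 and 34.6 in KO, and 180 and 180 in irradiated KO. Its groups fell in the order seen for Tap1, Psmb8 and Psmb9, with non-irradiated KO lowest (log2 -0.50 ± 0.10 against WT, edgeR adjusted p = 0.0131), and its interaction was 1.16 ± 0.14 (edgeR adjusted p = 0.00661). Stat2, a transcription factor of the type I interferon response, had an interaction of 1.53 ± 0.12 (edgeR adjusted p = 0.00117), and it was higher in KO than in WT even without irradiation (0.67 ± 0.08, 0.0019), as was Irf9 (0.82 ± 0.12, 0.00369), which binds DNA together with Stat2. Creb1 and the 3 NF-Y subunit genes Nfya, Nfyb and Nfyc, which hold Nlrc5 at class I promoters together with the RFX factors, fell with irradiation in both lines, from -0.24 for Nfya in KO to -0.84 for Creb1 in KO. Rfx5, the DNA-binding RFX subunit, rose in KO (0.76 ± 0.18, edgeR adjusted p = 0.012), a call lost without KO non-irradiated replicate 1 or KO irradiated replicate 2 (0.0653 and 0.0651), and was at 0.42 ± 0.18 in WT (edgeR adjusted p = 0.0973).

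Of the interferon ligands, receptors and kinases, 9 of 10 listed genes were tested. With irradiation 3 rose and 0 fell in WT and 5 rose and 0 fell in KO, against 20.4% and 21.1% of all tested genes called higher. The 5 include Ifnb1, which had enough reads to be tested only through irradiated KO libraries. Ifnb1, which encodes interferon beta, was counted in 1 and 0 reads in WT, 4 and 4 in irradiated WT, 1 and 0 in KO, and 129 and 118 in irradiated KO, while Ifng had at most 1 read in any library. Socs1, an inhibitor of JAK signalling, was at 10.4 and 13.1 CPM in WT, 10.5 and 8.6 in irradiated WT, 4.1 and 4.17 in KO, and 20.7 and 19.6 in irradiated KO, with an interaction of 2.61 ± 0.24 (edgeR adjusted p = 0.00223). Ifngr2, a chain of the interferon gamma receptor, was lower in KO both without irradiation (log2 -1.36 ± 0.09, edgeR adjusted p = 0.000116) and after it (-1.22 ± 0.08, 7.73e-05), at 22.6 and 20.5 CPM against 56.3 and 53.2, and at 39.7 and 37.5 CPM against 92.3 and 88.9. Of all tested genes, 9.49% were called lower in KO without irradiation, and 11.4% lower and 13.3% higher after it. In all, 4 of the 9 were lower in KO without irradiation, with fewer called when any non-irradiated library was left out and 2 with DESeq2. After irradiation 4 were lower and 3 higher. The 3 again include Ifnb1, which was tested only through the irradiated KO libraries, where it is high.

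Across the 8 libraries the members ran in parallel. The Pearson correlation of each member's log2 CPM with the mean of the other members ran from 0.92 for Nlrc5 to 0.993 for Psmb9, given as a description over libraries that share 4 groups. How many of all tested genes reach such values was not counted. Among 10160 protein-coding genes outside the list with a mean of at least 5 CPM, the 5 whose profiles were most like the members' mean were Gna13 (r = 0.9959), a G protein alpha subunit, Uba7 (0.9916), the activating enzyme for the ubiquitin-like ISG15, Irf1 (0.9914), Ifi207 (0.9913), an interferon-inducible gene, and Plscr2 (0.9911). Gna13 ran parallel over a narrow range, at 169 and 174 CPM in WT, 208 and 209 in irradiated WT, 166 and 157 in KO, and 236 and 236 in irradiated KO. Uba7 had a wide range, from 3.38 and 4.01 CPM in WT and 2.73 and 3.52 in KO to 19.5 and 18.5 in irradiated WT and 53.5 and 57.7 in irradiated KO.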

How the data were processed

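The 8 libraries of mRNA from MC38 cells fall into 4 groups of 2. The deposited values are the authors' raw counts of reads per Ensembl gene, whole numbers without normalization. HISAT2, HISAT, HTSeq and DESeq2 and the build mm10 are named in the submitters' processing notes; versions, annotation release, strand setting and treatment of reads that map to several places: not given in the sources used here. Genes that overlap on opposite strands may therefore hold each other's reads. Tap1 and Psmb9 overlap by 212 bases, Erap1 and Cast by 834, Nlrc5 and 9330175E14Rik by 748 and Psme1 and Emc9 by 14, and the opposite-strand genes of Tap2, Tapbp, Psmb8 and Psmb10 had at most 14 reads.

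Gene positions and exon lengths came from GENCODE M21 (GRCm38), and 28880 of 29079 IDs had a symbol. Genes were kept with edgeR's filterByExpr (minimum count 10, minimum total 15), which left 14923. All 8 libraries entered 1 edgeR 4.0.16 quasi-likelihood fit (limma 3.58.1, R 4.3.3) with TMM factors of 0.9746 to 1.024, a common dispersion of 0.01988 and 4 residual degrees of freedom. The 5 comparisons were irradiation in each line, KO against WT at each dose, and their interaction, with Benjamini-Hochberg adjustment over all tested genes and a threshold of 0.05. CPM are counts scaled to the library total, and log2 CPM used a prior count of 2. Alternatives were DESeq2 1.42.0, median-of-ratios scaling, no count filter, only the groups compared, a replicate block and leaving out each library. The scripts were tested on simulated data. Sequences came from RefSeq promoter windows.

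The members and the gene lists were chosen with earlier results of these data known. Named were all 10 members, the fixed counterparts Psmb5, Psmb6, Psmb7, Psme3, B2m, H2-K1 and Irf1, up to 2 called genes of largest change per list and comparison, and the 5 genes most like the members. Tapbpl, H2-D1 where not among those, the Nlrc5 partners, Ifng and the copies of Psme2 were named after their values were seen. A further gene of the naming rule is not reported here.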

Additional observations from a re-analysis of the deposited data

Results flagged for a closer look

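For 6 members the effect of irradiation differed between the lines by the interaction term of edgeR's quasi-likelihood fit, where 1.37% of all tested genes were called positive and 0.57% negative. The difference, KO minus WT in log2 change, was 2.88 for Tap1, 2.36 for Psmb8, 3.20 for Psmb9, 1.35 for Psmb10, 0.58 for Psme1 and 1.99 for Nlrc5. For all 10 members, the 4 not called included, the ratio of any irradiated to any non-irradiated library was larger in KO than in WT. The share of all tested genes that separate in this way was not computed. For Psme1 the value was past the threshold only while all 8 libraries were kept, and DESeq2 gave it an adjusted p of 0.0517.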

How the results depend on the processing

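The counts of members called with irradiation, 9 in WT and 10 in KO, were also 9 and 10 when each of the 8 libraries was left out in turn. For KO against WT without irradiation the 4 calls ranged from 3 to 4 with a library left out, and after irradiation the 6 calls ranged from 4 to 8. The interaction's 6 calls ranged from 4 to 5. Where a group was left with 1 library, its spread was taken from the other groups. With only the groups compared in the fit, 2 members were called in KO against WT without irradiation. Without a count filter 6 were called there, 9 after irradiation and 8 in the interaction. The shares of all tested genes called under these alternatives were not computed, so a gain may not be particular to the members. DESeq2 called Tap2 lower in KO without irradiation (adjusted p = 0.0454), lost Psme1 in the interaction (adjusted p = 0.0517) and Erap1 in KO against WT after irradiation (0.0816), and gained Tap2, Tapbp and Psme2 in the interaction (0.0121, 0.0266 and 0.0406). The log2 difference of Nlrc5 between the non-irradiated lines, 0.06 and not called, ranged from -0.05 to 0.18 with a library left out, and it was negative without WT non-irradiated replicate 1 (-0.049) or KO non-irradiated replicate 2 (-0.03). The cause was not tested.

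Libraries with the same replicate number deviated together, with correlations of 0.564 to 0.611 between groups, but the labels do not say what a number marks and each comparison holds 2 pairs. With the number as a replicate block, 7 members were called in KO against WT without irradiation, and 10 in the interaction. The block also added Psme2 with irradiation in WT (log2 0.25, adjusted p = 0.00176), which made 10, and Tap2, Psmb8 and Psme2 in KO against WT after irradiation, which made 9. The share of all tested genes called with the block was not computed, so these gains may not be particular to the members. Depth limits Psmb9 most, with 9 and 21 reads in non-irradiated KO.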
